A study of Saccharomyces cerevisiae with 6 samples.

Results

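The 40 genes described here encode, in the yeast nucleus, the protein subunits of the mitochondrial respiratory chain and of the ATP synthase that the chain drives. The rule that chose them went by systematic name among the 6692 genes in the count files and used no measured value. Earlier results of these data were known when it was set. The set holds 3 NADH dehydrogenase genes, 4 genes of complex II, 9 of complex III, 2 cytochrome c genes, 8 of complex IV and 14 of the ATP synthase. All 40 were found in the files, and each has an entry in R64, the RefSeq assembly also called sacCer3. All 6 libraries came from haploid MATa budding yeast (Saccharomyces cerevisiae) of the W303 background, with the auxotrophic markers ade2-1, his3-11 and his3-15, leu2-3 and leu2-112, trp1-1 and ura3-1 and the canavanine resistance allele can1-100. By their strain and source fields all carried RIO1-AID, a RIO1 gene fused to an auxin-inducible degron, and PADH1-OsTIR1, the rice F-box protein OsTIR1 driven by the ADH1 promoter. With these parts, auxin sends the tagged protein to the proteasome. For the 3 Rio1-depleted libraries auxin was present at 500 µM during 1 h, while the cells of the 3 control libraries received none. Both groups were in exponential growth in YPD, a rich glucose medium, at 23 °C. In sample titles and in the design text the controls are described as wild type, whereas the strain and source fields give the degron strain for both groups. The labels do not settle which is right. If the controls were wild type, the degron tag and OsTIR1 would also differ between the groups and could not be told apart from the depletion. No library had auxin without Rio1 loss, so auxin itself and the loss of Rio1 cannot be told apart.

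Electrons from NADH and succinate enter the chain through NADH dehydrogenases and through complex II (succinate dehydrogenase), pass by way of coenzyme Q to complex III (the cytochrome bc1 complex), by way of cytochrome c to complex IV (cytochrome c oxidase), and from there to oxygen. Budding yeast has no proton-pumping complex I and uses single-protein NADH dehydrogenases in its place. Complexes III and IV pump protons, and the ATP synthase uses the gradient to make ATP. Most of these genes are repressed by glucose and activated by the Hap complex, in which HAP2, HAP3 and HAP5 encode the DNA-binding part, which reads a CCAAT box, and HAP4 encodes the activating part, the one whose expression glucose lowers. Exponential cells in glucose ferment and hold these mRNAs at part of their respiratory level.

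The Hap box is shown first because it occurred upstream of a larger share of the members than of other genes. The 500 bases before each annotated start codon in R64 were searched on both strands for ACCAATNA, an extended form of the CCAAT box, and for CCAAT alone, which lies inside it. ACCAATNA was present upstream of 17 of the 40 members (42.5%), against 8.6% of 6000 nuclear protein-coding genes, and CCAAT upstream of 36 of 40, against 62.4% of the same genes. Of 14 TCA cycle genes, 12 (85.7%) had CCAAT and 1 (7.14%) had ACCAATNA. By complex, ACCAATNA was found for 2 of 3 NADH dehydrogenase genes, 1 of 4 of complex II, 3 of 9 of complex III, neither cytochrome c gene, 4 of 8 of complex IV and 7 of 14 of the ATP synthase. A match is a run of letters and not a shown binding site, and a missing match does not show that a site is missing. Forms that depart from these letters were not searched for. The strain of the study is not the sequenced strain. The windows below are 30 bases of R64 in the direction of transcription, with the match in capitals. They are given for the 8 members with a match whose mRNA was called lower in depleted libraries. Windows are also given for 4 of the 9 members with a match whose mRNA did not pass the test.
NDE1 (chrXIII:556560-556589, minus strand): tattctggtaaACCAATTAaagagagaaaa
SDH1 (chrXI:171429-171458, minus strand): ggcgggggtggACCAATCAcagcgcagaac
COR1 (chrII:135849-135878, minus strand): acgctttctgcACCAATGAaatgccaataa
COX6 (chrVIII:209477-209506, plus strand): gaaaagggaccTAATTGGTccggtcaaagc
COX8 (chrXII:910149-910178, minus strand): aaacggtttgcACCAATCAtacgagagaag
ATP3 (chrII:315368-315397, plus strand): cgtgatggagaACCAATGAgcggcgagtaa
ATP15 (chrXVI:29934-29963, plus strand): cttttatacgaACCAATGAaatttgatcct
ATP17 (chrIV:1228370-1228399, plus strand): ttacggagagaACCAATCAtatcgaaggat
RIP1 (chrV:107001-107030, plus strand): ctccataacggACCAATCAgcgttttgcgc
QCR7 (chrIV:1496712-1496741, minus strand): atcttgttttgACCAATCAggagcgacgcg
ATP4 (chrXVI:408916-408945, minus strand): atcaatattgaACCAATCAcgacgcttttt
TIM11 (chrIV:1112420-1112449, minus strand): aatctccacgcTAATTGGTccgcggagcca
In COX6 and TIM11 the match lies on the opposite strand, so its reverse complement is printed. NDE1 has a second match close to its start codon. Between these 12 windows the letter left free by the motif and the flanks differ. The core is the same in all because a window was taken only at a match, so it cannot compare called with uncalled genes.

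The libraries held 683896 to 1048376 gene counts in depleted cells and 788498 to 1671136 in control cells, so that 1 read is worth 0.671 to 1.44 CPM. CPM (counts-per-million) is taken after TMM scaling, which sets the bulk of genes to equal levels. Open reading frames inside or next to the rDNA held 4.12% of the gene counts of depleted library 2, 1.48% of those of control library 1 and 0.0589% to 0.197% of the others'. Single-gene calls that change without these 2 libraries are given with their values. The mRNA of RIO1 itself was higher in depleted cells (130.2, 112.7 and 94.0 CPM) than in control cells (66.0, 66.6 and 63.1 CPM). Auxin removes the protein and not the mRNA, so the depletion is not checked by this level. Markers of the labelled mating type were present in all libraries (MFA2, STE2 and STE6 each at 132 CPM or more, and MFA1 at 2.87 to 10.7 CPM), and the MATalpha genes MF(ALPHA)1, MF(ALPHA)2 and STE3 stood between 0 and 10.05 CPM. Levels are shares of each library, so less RNA of a gene per cell and fewer cells that express it cannot be told apart.

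Genes of the respiratory chain and the ATP synthase were lower in Rio1-depleted cells by a modest and uneven amount. Of 38 members with enough reads to test, 16 were lower and none higher (edgeR's quasi-likelihood test, adjusted p under 0.05), where 14.1% of all 5195 tested genes were called lower and 14.1% higher. At an unadjusted p under 0.05, 20 members were lower and none higher, against 19.1% and 19.4% of all genes. DESeq2 called 14 lower and 1 higher, against 10.4% and 9.29% of all genes, and limma-voom called 16 lower and none higher, against 14.4% and 14.3%. The gene called higher by DESeq2 was NDE2, which had too few reads for the edgeR test. The log2 fold changes of the 38 ran from -1.09 in COX6 to 0.29 in TIM11, with a median of -0.36, against 0.01 for all tested genes, and 36 of 38 lay below 0, against 49.1% of all tested genes. In 20 of the 38 members every depleted library was below every control library, and in none was the order the other way, where 20% and 20.6% of tested genes separated in those directions.

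**Figure D1:**
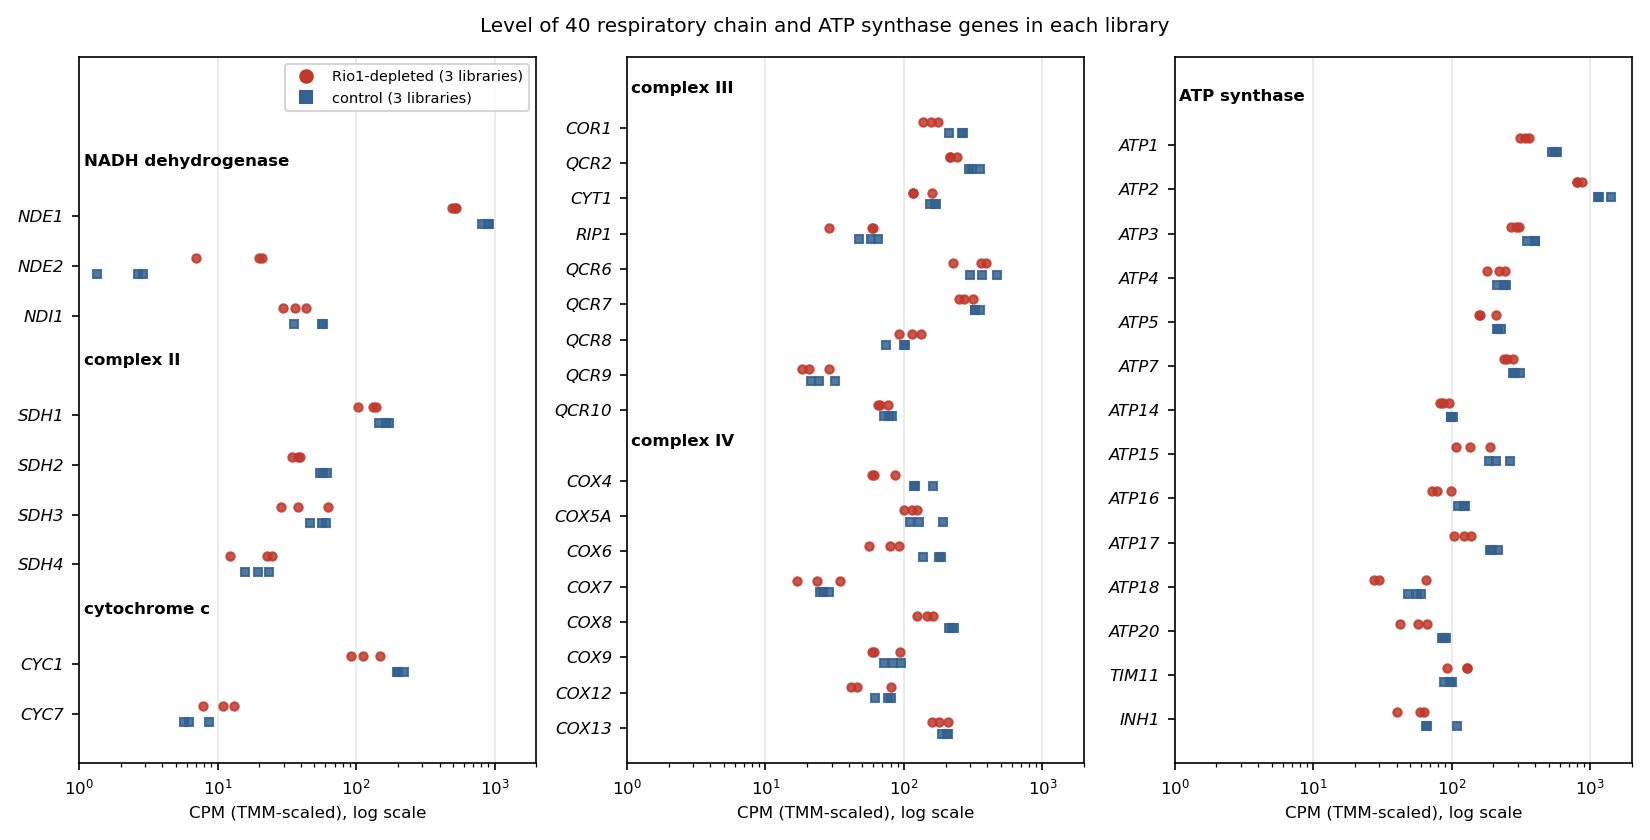
Level of each of the 40 members in each library, in CPM on a log axis, with depleted libraries as red circles above control libraries as blue squares. In COX6 the depleted libraries lie between 56.0 and 92.6 CPM and the control libraries between 138 and 184 CPM, while in QCR8, SDH4 and COX7 the groups overlap.

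How many of these genes count as lower depends on the scaling between libraries. Scaled by library totals alone, all tested genes had a median of 0.33 on the log2 scale and the members one of -0.045, and 6 members were lower (COX6, COX4, CYC1, NDE1, ATP1 and ATP17) and 2 higher (QCR8 and TIM11). Under that scaling 5.89% of all tested genes were called lower and 33.9% higher. A change of scaling moves all genes by nearly the same amount, so the gap between the members' median and that of all genes stayed at -0.37. The falls given below are thus falls relative to most other mRNAs.

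**Figure D2:**
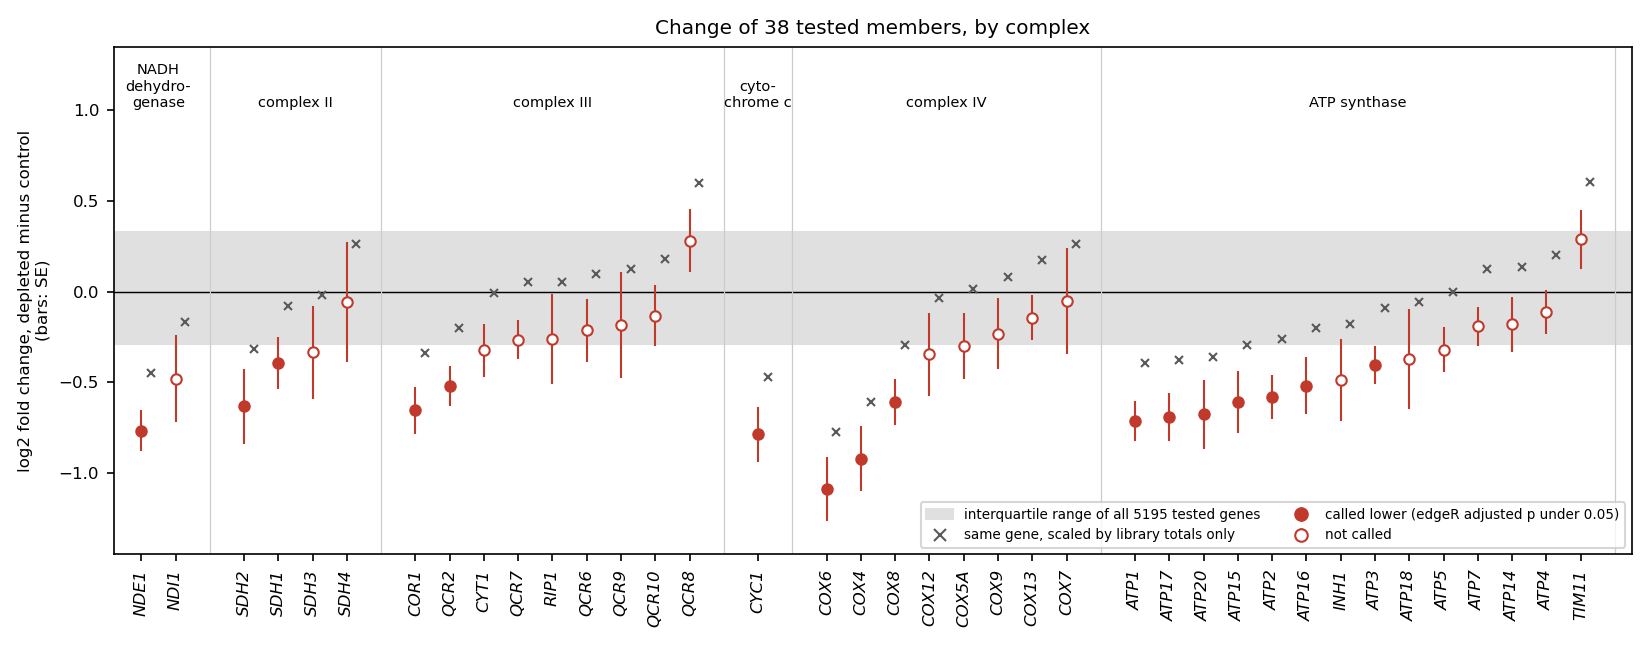
Log2 fold change (depleted minus control, with SE) of the 38 tested members by complex, filled where called lower, with the value under library totals only as a cross and the interquartile range of all tested genes in grey. COX6 at -1.09 and COX4 at -0.92 lie lowest, and QCR8 and TIM11 are the only members above 0 with TMM scaling.

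As shares of all gene counts, without any scaling, the 40 members together took 0.638% to 0.660% in depleted libraries and 0.713% to 0.724% in control libraries, with 95% Wilson intervals of at most 0.019 percentage points to either side, which cover counting error only. On that unscaled share the groups stayed apart for the NADH dehydrogenases, cytochrome c and the ATP synthase and overlapped for complexes II, III and IV. In summed TMM-scaled CPM, depleted libraries were below control libraries for all 6 groups. Cytochrome c stood at 0.599 and the NADH dehydrogenases at 0.612 of their control level, complex IV at 0.702, the ATP synthase at 0.724, complex II at 0.766 and complex III at 0.808. The difference between complexes was not tested. Sums follow the most abundant members, NDE1 and CYC1 in the first 2 groups.

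**Figure D3:**
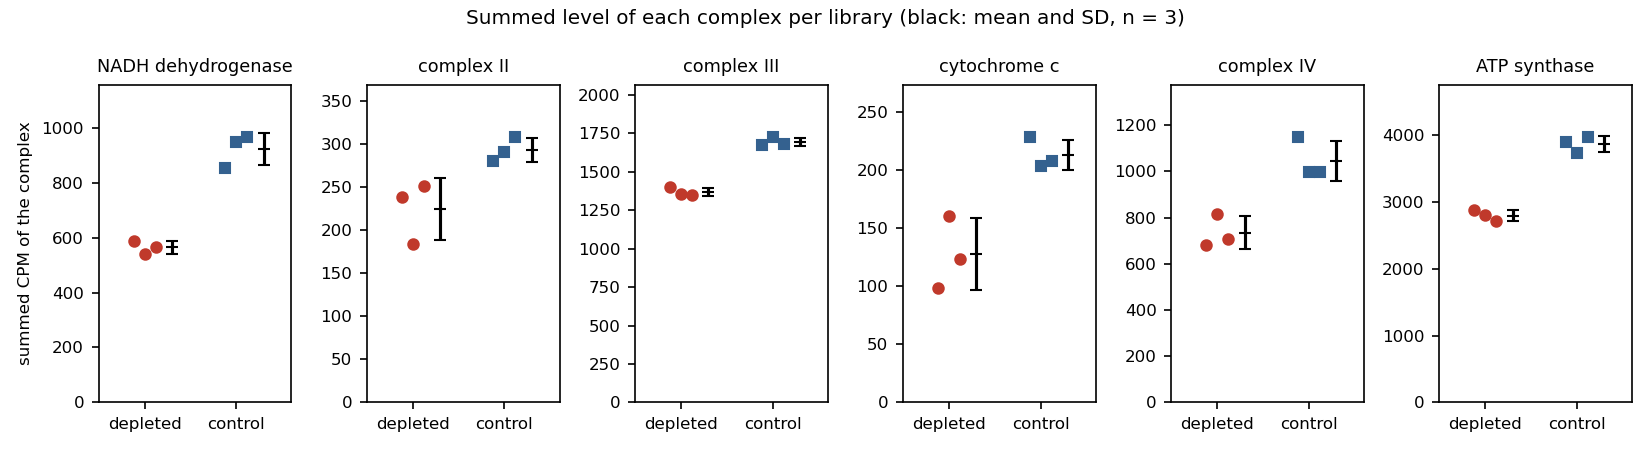
Summed CPM of the members of each complex in each library, with mean and SD (n = 3 per group) in black. The ATP synthase genes sum to 2795 ± 81.1 CPM in depleted and 3859 ± 121 CPM in control libraries, and complex III genes to 1369 ± 27.9 and 1694 ± 25.9 CPM, with no overlap between the groups in any panel.

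Among the entry points for NADH, the main gene fell and a minor one gained reads. NDE1 (YMR145C, chromosome XIII, 554793 to 556475, R64) encodes the main external enzyme, which oxidises cytosolic NADH at the outer face of the inner membrane. It had 530, 490 and 515 CPM in depleted libraries 1 to 3, against 815, 888 and 907 CPM in control libraries 1 to 3. The groups lie far apart, with a difference of -0.77 ± 0.11 on the log2 scale (SE, 3 libraries a group; edgeR adjusted p = 3.859e-05), the smallest p of all members. NDI1, the internal enzyme that takes electrons from matrix NADH, had 36.5, 43.7 and 29.7 CPM in depleted libraries and 35.9, 57.7 and 56.4 CPM in control libraries. Its groups overlap and it did not pass the test (-0.48 ± 0.24, edgeR adjusted p = 0.151). It passed only with depleted library 2 and control library 1 both left out (-0.80, edgeR adjusted p = 0.0341).

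NDE2 (YDL085W, chromosome IV, 303211 to 304848), encodes the other external NADH dehydrogenase. It had 16, 8 and 20 counts in depleted libraries and 2, 3 and 2 counts in control libraries, too few for the count filter. The sums of 44 and 7 counts give a ratio of 7.12 with a 95% exact interval of 3.18 to 18.7, which covers counting error only. Every depleted library was above every control library, the reverse of NDE1. Without the count filter edgeR gave 2.76 on the log2 scale (edgeR adjusted p = 0.000695), and DESeq2 gave 2.84 (DESeq2 adjusted p = 0.00246). Even so NDE2 made up only 3.78%, 1.41% and 3.70% of the NDE1 and NDE2 counts in depleted libraries 1 to 3, against 0.351%, 0.299% and 0.148% in control libraries 1 to 3. The lowest depleted share, 1.41%, came from depleted library 2 and has a 95% Wilson interval of 0.714% to 2.75%.

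**Figure D4:**
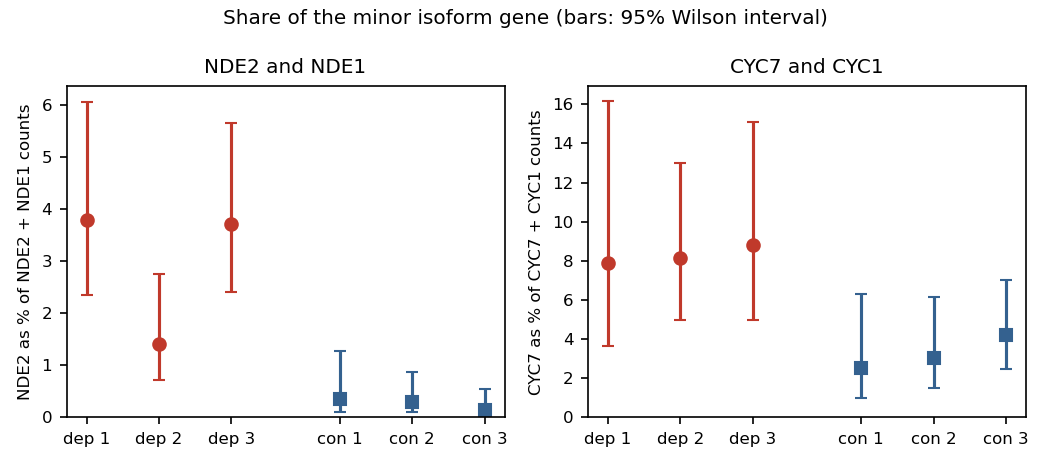
Counts of NDE2 as a percentage of NDE2 and NDE1 counts (left) and of CYC7 as a percentage of CYC7 and CYC1 counts (right) in each library, with 95% Wilson intervals, depleted libraries in red and control libraries in blue. The CYC7 shares run from 7.89% to 8.80% in depleted and from 2.52% to 4.19% in control libraries.

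Complex II, which passes electrons from succinate to coenzyme Q, had 2 of 4 genes lower, in calls that several alternatives did not keep. SDH1 encodes the flavoprotein that binds succinate and SDH2 the iron-sulfur subunit, and SDH3 and SDH4 encode the membrane anchors. SDH2 had 37.8, 39.3 and 34.6 CPM in depleted libraries and 57.4, 61.3 and 55.1 CPM in control libraries. The groups do not overlap, with a log2 fold change of -0.63 ± 0.21 (edgeR adjusted p = 0.0278). SDH1 had 138, 103 and 132 CPM in depleted libraries and 146, 164 and 172 CPM in control libraries (-0.39 ± 0.14, edgeR adjusted p = 0.0450). Depleted library 1 lay close to control library 1 for this gene. Neither call was kept by DESeq2 (adjusted p = 0.114 for SDH1 and 0.0810 for SDH2). SDH1 lost its call without depleted library 2 (edgeR adjusted p = 0.167), control library 2 (0.101) or control library 3 (0.152), and SDH2 without depleted library 3 (0.0783), control library 2 (0.0832) or control library 3 (0.0554). Neither was called with depleted library 2 and control library 1 both left out (edgeR adjusted p = 0.146 for SDH1 and 0.0583 for SDH2). The anchor genes SDH3 (-0.34) and SDH4 (-0.05) did not pass the test, and SDH3 passed without depleted library 3 (-0.73, edgeR adjusted p = 0.0475).

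Complex III, which hands electrons from coenzyme Q to cytochrome c, fell in its large core subunits. COR1 and QCR2 encode the core proteins on the matrix side. COR1 (YBL045C, chromosome II, 134143 to 135516) had 156, 137 and 176 CPM in depleted libraries and 267, 211 and 262 CPM in control libraries (-0.65 ± 0.13, edgeR adjusted p = 0.000878). QCR2 had 241, 217 and 214 CPM in depleted libraries and 293, 310 and 352 CPM in control libraries (-0.52 ± 0.11, edgeR adjusted p = 0.00144). For both genes all depleted libraries lay below all control libraries. The redox subunits did not pass the test, with CYT1, cytochrome c1, at -0.32 ± 0.14 and RIP1, the Rieske iron-sulfur protein, at -0.26 ± 0.25. Of the small subunits, the most abundant per length were QCR7 and QCR6. QCR7 had 251, 269 and 313 CPM in depleted libraries and 326, 352 and 325 CPM in control libraries, groups that do not overlap although the test was not passed (-0.27 ± 0.11, edgeR adjusted p = 0.0737). QCR6 overlapped between the groups, with 359, 393 and 225 CPM in depleted libraries and 366, 469 and 300 CPM in control libraries. QCR9 and QCR10 lay at -0.18 and -0.13 and QCR8 at 0.28, none of them past the test. Without depleted library 3, 4 complex III genes were lower instead of 2, where 13.2% of all genes were lower and 11.9% higher, CYT1 (edgeR adjusted p = 0.0122) and QCR7 (0.0196) being added.

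Cytochrome c carries electrons from complex III to complex IV. CYC1 (YJR048W, chromosome X, 526335 to 526664) encodes isoform 1, the main form in aerobic cells, and CYC7 isoform 2, a minor form. CYC1 had 91.1, 148 and 113 CPM in depleted libraries and 223, 197 and 199 CPM in control libraries. The groups do not overlap, and the log2 fold change was -0.79 ± 0.15 (edgeR adjusted p = 0.000610). CYC7 had 6, 15 and 11 counts in depleted libraries and 4, 7 and 13 in control libraries. Its sums of 32 and 24 counts give a ratio of 1.51 with a 95% exact interval of 0.863 to 2.68, and without the count filter it was not called (edgeR adjusted p = 0.429). As a share of both genes' counts CYC7 was nevertheless higher in every depleted library than in any control library, though the 95% Wilson intervals overlap, being 3.67% to 16.2% in depleted library 1 and 2.47% to 7.04% in control library 3. A change of CYC7 itself was not shown.

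Complex IV held the largest falls of all members. COX4, COX6 and COX8 encode nuclear subunits that surround the catalytic core made in the mitochondrion. COX6 (YHR051W, chromosome VIII, 209705 to 210151) had 56.0, 92.6 and 79.2 CPM in depleted libraries and 184, 178 and 138 CPM in control libraries. It fell by 1.09 ± 0.17 on the log2 scale, 2.13-fold (edgeR adjusted p = 9.707e-05), and was the only member called when the change was tested against 1.5-fold (glmTreat, edgeR adjusted p = 0.0165), a test that called 3.66% of all genes lower. COX4 (YGL187C, chromosome VII, 149704 to 150171) had 58.6, 85.6 and 60.4 CPM in depleted libraries and 161, 121 and 118 CPM in control libraries (-0.92 ± 0.18, edgeR adjusted p = 0.000744). COX8 had 125, 161 and 147 CPM in depleted libraries and 224, 210 and 230 CPM in control libraries (-0.61 ± 0.12, edgeR adjusted p = 0.00105). None of these 3 genes overlapped between the groups.

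The other 5 genes of complex IV did not pass the test. COX13 had 207, 179 and 158 CPM in depleted libraries and 207, 189 and 203 CPM in control libraries (-0.14 ± 0.12). COX5A, the aerobic isoform of subunit 5, lay at -0.30 ± 0.18, and its control values of 191, 128 and 110 CPM were widely spread. COX5B, the hypoxic isoform gene, which is no member, lay at -0.48 ± 0.30 (edgeR adjusted p = 0.262), and made up 11.3% to 17.8% of the counts of the pair in depleted libraries and 9.52% to 20.8% in control libraries. COX12, COX9 and COX7 lay at -0.34, -0.23 and -0.05. In COX12 and COX9 depleted library 2 stood above the other depleted libraries, with 80.4 CPM against 41.7 and 45.5 in COX12 and 93.5 CPM against 61.2 and 58.4 in COX9. COX12 passed without that library (-0.73, edgeR adjusted p = 0.0208). With depleted library 2 and control library 1 both left out, COX12 and COX9 passed and 5 of 8 genes were lower, where 12% of all genes were lower and 11.7% higher.

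In the ATP synthase all 5 genes of the catalytic head fell, and none of the 4 of the peripheral stalk passed the test. F1, the head in the matrix, is made of alpha (ATP1), beta (ATP2), gamma (ATP3), delta (ATP16) and epsilon (ATP15) subunits, and their median was -0.58. The 4 stalk genes ATP4, ATP5, ATP7 and ATP14 hold the head still against the membrane rotor, and none was lower by edgeR, DESeq2 or limma-voom (1 at an unadjusted p under 0.05), with a median of -0.19. The difference between the parts was not tested. ATP1 was the only F1 gene called lower with library totals only, where the stalk's median turned to 0.13 and 5.89% of all genes were lower. With depleted library 2 and control library 1 both left out, 3 F1 genes were lower, where 12% of all genes were. Every depleted library lay below every control library in 4 of the 5 F1 genes and in 3 of the 4 stalk genes (ATP5, ATP7 and ATP14). Of all tested genes 20% separated in that direction.

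ATP2 was the most abundant member by counts, with 870, 800 and 801 CPM in depleted libraries and 1160, 1129 and 1401 CPM in control libraries (-0.58 ± 0.12, edgeR adjusted p = 0.00144). ATP1 (YBL099W, chromosome II, 37053 to 38690) had 363, 310 and 340 CPM in depleted libraries and 554, 529 and 573 CPM in control libraries (-0.71 ± 0.11, edgeR adjusted p = 7.203e-05). These partners, which alternate around the head, thus stood apart between the groups in all libraries. ATP3 had 303, 290 and 266 CPM in depleted libraries and 398, 396 and 346 CPM in control libraries (-0.40 ± 0.11, edgeR adjusted p = 0.00773). ATP16 had 71.6, 78.7 and 99.0 CPM in depleted libraries and 123, 110 and 126 CPM in control libraries (-0.52 ± 0.16, edgeR adjusted p = 0.0201). ATP3 and ATP16 also did not overlap between the groups. ATP15, the smallest F1 subunit and the most abundant member per length, had 187, 135 and 108 CPM in depleted libraries and 263, 210 and 185 CPM in control libraries (-0.61 ± 0.17, edgeR adjusted p = 0.0116). Its highest depleted library just exceeded its lowest control library. The call of ATP15 was lost without depleted library 3 (edgeR adjusted p = 0.0506) or control library 1 (0.0667), and that of ATP16 without depleted library 1 (0.0673), depleted library 2 (0.0551) or control library 3 (0.0772). With depleted library 2 and control library 1 both left out neither was called (edgeR adjusted p = 0.122 for ATP15 and 0.101 for ATP16).

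On the membrane side, ATP17 and ATP20 were lower and ATP18 and TIM11 were not called. ATP17, subunit f, had 104, 122 and 139 CPM in depleted libraries and 215, 187 and 194 CPM in control libraries (-0.69 ± 0.13, edgeR adjusted p = 0.000665). ATP20, subunit g, had 57.3, 41.9 and 66.3 CPM in depleted libraries and 90.4, 84.3 and 88.6 CPM in control libraries (-0.68 ± 0.19, edgeR adjusted p = 0.0113), a call lost without depleted library 2 (edgeR adjusted p = 0.0595) and without both it and control library 1 (0.103). TIM11 encodes subunit e, which works with subunit g in pairing ATP synthases into dimers. TIM11 had 129, 128 and 92.1 CPM in depleted libraries and 97.6, 100 and 88.6 CPM in control libraries (0.29 ± 0.16, edgeR adjusted p = 0.201). ATP20 and TIM11 thus lay on opposite sides of 0, although TIM11 did not pass the test. ATP18 had 65.5 CPM in depleted library 2, against 27.3 and 29.7 CPM in the other depleted libraries and 47.9 to 60.3 CPM in control libraries, and was lower without that library (-0.93, edgeR adjusted p = 0.0138) and without both it and control library 1 (-0.88, edgeR adjusted p = 0.0291). INH1 encodes the inhibitor that stops the enzyme from running backwards. It lay at -0.49 ± 0.23 and was not called, with 40.4, 62.9 and 59.4 CPM in depleted libraries and 109, 66.6 and 65.1 CPM in control libraries, groups that do not overlap. In the stalk, ATP7 had 251, 275.3 and 240 CPM in depleted libraries and 279, 313 and 284 CPM in control libraries, and ATP4, ATP5 and ATP14 lay at -0.11, -0.32 and -0.18. ATP5 was lower without depleted library 1 (-0.45, edgeR adjusted p = 0.0156) and in a fit with the library number as a block (-0.33, edgeR adjusted p = 0.0443).

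From member to member the mRNA levels differed widely. Per kilobase of exon, ATP15 stood at 758 ± 214 CPM in depleted and 1158 ± 211 CPM in control libraries (SD, n = 3 each) and COX8 at 608 ± 76.1 and 934 ± 41.6 CPM. At the other end were NDI1, with 23.7 ± 4.54 CPM per kilobase in depleted and 32.4 ± 7.93 in control libraries, CYC7, with 31.0 ± 7.78 and 20.2 ± 4.69, and NDE2, with 9.69 ± 4.71 and 1.40 ± 0.51. ATP1 and ATP2, which enter the head in equal number, had 206 and 536 CPM per kilobase in depleted libraries and 337 and 801 in control libraries. Across the 38 tested members the log2 fold change was lower for genes with a higher control level (Pearson's r = -0.37, Spearman's rho = -0.35 with log2 control CPM) and for longer genes (r = -0.30, rho = -0.30), given as a description, since the genes share libraries and the control level enters both axes of the first relation. The 16 members called lower had a median of 177 counts per library and the 22 not called 90.5, with SEs of up to 0.21 in the first and 0.33 in the second set. ACCAATNA did not separate the members that fell, being present upstream of 8 of 16 called lower and 9 of 22 not called. This holds for these exact letters only, and COX4 and CYC1, both called lower, had no CCAAT either. The 17 tested members with it had a median log2 fold change of -0.39 and the 21 without it -0.34.

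Subunits of the same complexes are also encoded in the mitochondrial genome, and none of their 6 tested genes was called by edgeR, DESeq2 or limma-voom, and none had an unadjusted p under 0.05 in edgeR. Their log2 fold changes ran from -0.23 in COX1 to 0.25 in COX3, with a median of -0.09. COX3, a core subunit of complex IV, had 858, 628 and 1363 CPM in depleted libraries and 782, 831 and 790 CPM in control libraries. COB, the cytochrome b of complex III, had 805, 885 and 1057 CPM in depleted libraries and 1143, 1002 and 983 CPM in control libraries. In both genes depleted library 3 was the highest of its group, and the groups overlap. COX2, ATP6 and OLI1 lay at 0.01, -0.21 and 0.08, and ATP8 had 0 to 5 counts per library. Leaving out depleted library 3 brought COX1 (-0.52, edgeR adjusted p = 0.0217) and ATP6 (-0.62, 0.0404) past the test, leaving out depleted library 2 brought COX3 past it as higher (0.47, 0.0282), and COX3 was also called higher with library totals only. Whether the nuclear and mitochondrial subunits differ in their change was not tested.

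Among the regulators, HAP4 and ROX1 were lower. HAP4 (YKL109W, chromosome XI, 232227 to 233891) had 53.4, 62.9 and 66.3 CPM in depleted libraries and 94.7, 78.1 and 134 CPM in control libraries. The groups do not overlap (-0.76 ± 0.20, edgeR adjusted p = 0.00783), but control library 3 was the highest, and without it the call was lost (-0.50, edgeR adjusted p = 0.107). ROX1, a repressor of hypoxic genes, had 174, 200 and 179 CPM in depleted libraries and 202, 270 and 283 CPM in control libraries (-0.46 ± 0.13, edgeR adjusted p = 0.0119), a call lost without control library 2 (0.0553) or 3 (0.0869). Neither call was kept with library totals only (edgeR adjusted p = 0.0847 for HAP4 and 0.399 for ROX1). HAP1, the heme-responsive activator, HAP2, HAP3 and HAP5 lay at 0.17, 0.34, -0.19 and 0.10 and were not called. HAP1 was called higher with library totals only (0.48, edgeR adjusted p = 0.0210) and with depleted library 2 and control library 1 both left out (0.45, edgeR adjusted p = 0.0466).

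Assembly factors, which build the complexes without being part of them, were mostly not called. Of 49 tested assembly genes, 2 were higher and none lower by edgeR, 2 higher and none lower by DESeq2 and 3 higher and none lower by limma-voom, with a median log2 fold change of 0.22, against -0.36 for the 38 members. At an unadjusted p under 0.05, 10 were higher and 3 lower, where 19.4% of all genes were higher and 19.1% lower. Library totals alone gave 15 higher and none lower, where 33.9% of all genes were higher. FLX1, a mitochondrial carrier linked to FAD supply and to complex II, had 107, 67.3 and 84.1 CPM in depleted libraries and 25.8, 8.88 and 26.9 CPM in control libraries. It rose by 2.05 ± 0.29 on the log2 scale (edgeR adjusted p = 2.641e-05), with no overlap, and was called in every alternative tried. COX23, a factor for copper delivery to complex IV, had 61.2, 40.2 and 64.3 CPM in depleted libraries and 24.4, 24.9 and 30.9 CPM in control libraries (1.00 ± 0.25, edgeR adjusted p = 0.00492). No gene of the complex III (8 tested) or ATP synthase (11 tested) assembly lists was called by edgeR, DESeq2 or limma-voom with the main settings. CBP6, a complex III assembly factor named after its values were seen, lay lowest at -0.68 (edgeR adjusted p = 0.0589). It was called lower without depleted library 2 (-1.01, edgeR adjusted p = 0.0154) or control library 3 (0.0394) and without both depleted library 2 and control library 1 (0.0287). The same call came with no count filter (0.0413), without mitochondrial rows and rows inside or next to the rDNA (0.0499) and in the replicate block (0.0375). Of their most abundant genes, CBP3 and CBP1 lay at 0.00 and 0.20 and ATP22 and AEP1 at -0.05 and -0.39. AEP1 was lower without depleted library 1 (-0.68, edgeR adjusted p = 0.0306) and CBP1 higher with library totals only (0.52, edgeR adjusted p = 0.0116). ACCAATNA was present upstream of 4 of the 55 assembly genes (7.27%).

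**Figure D5:**
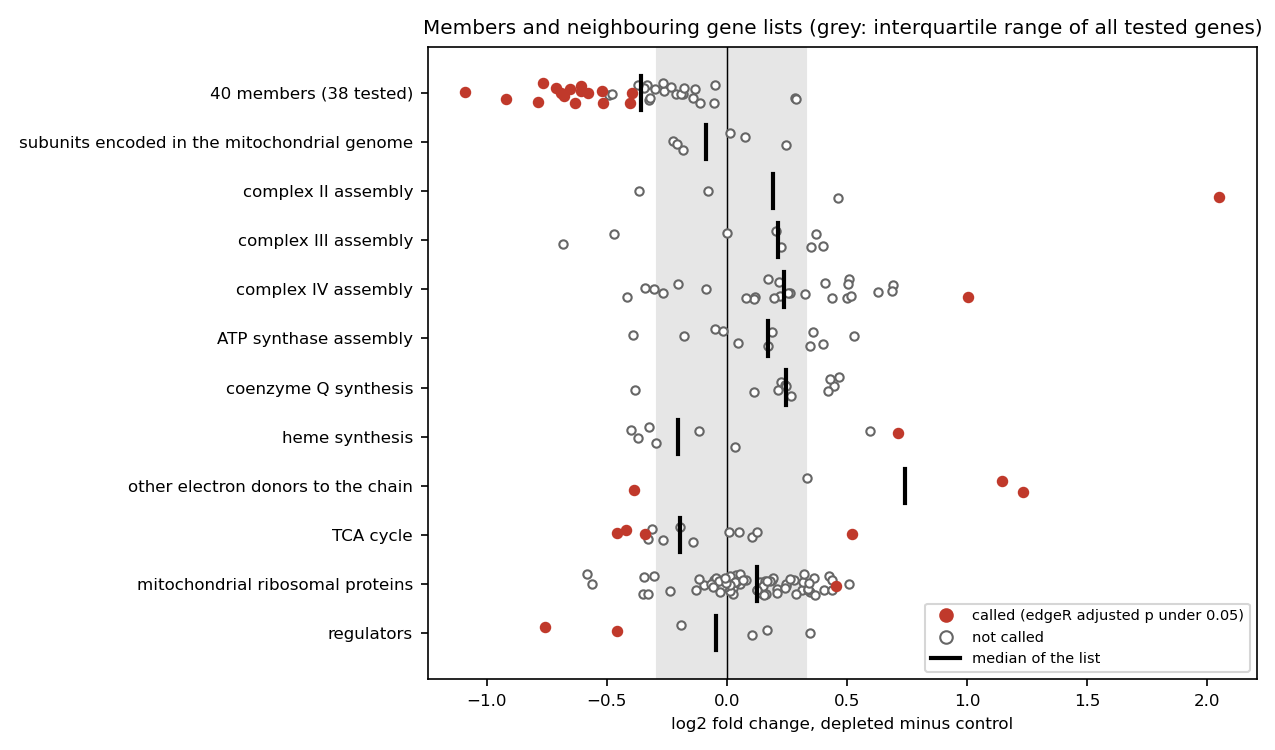
Log2 fold change (depleted minus control) of the tested members and of neighbouring gene lists, filled red where called, with each list's median as a black bar and the interquartile range of all tested genes in grey. The members' median is -0.36 and that of the mitochondrial ribosomal protein genes 0.13.

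The carriers and cofactors of the chain were mixed. None of 11 genes for coenzyme Q synthesis was called by edgeR, DESeq2 or limma-voom (2 higher at an unadjusted p under 0.05), with a median of 0.25, COQ5 at 0.21 and COQ8 at 0.42, and 6 were called higher with library totals only, where 33.9% of all genes were higher. COQ8 was called without depleted library 3 (0.61, edgeR adjusted p = 0.00641). Of 8 heme synthesis genes 1 was higher and none lower, where 14.1% of all genes were called in each direction. Their median was -0.21, with 2 higher and 3 lower at an unadjusted p under 0.05 in edgeR. The gene called was HEM2 (0.71 ± 0.16, edgeR adjusted p = 0.00282), with 181, 146 and 246 CPM in depleted libraries and 115, 122 and 112 CPM in control libraries. For the attachment of heme to cytochrome c, CYC3 lay at 0.41 and CYC2 at -0.16, and CYC3 was not called by edgeR (adjusted p = 0.0612). It was called higher by limma-voom (adjusted p = 0.0462) and by edgeR without depleted library 1 (0.0463) or control library 1 (0.0395) and also with library totals only or a stricter count filter. Other dehydrogenases that feed electrons into the chain included GUT2, the glycerol 3-phosphate dehydrogenase gene, and CYB2, an L-lactate dehydrogenase gene, both higher. The CYB2 gene passed the count filter only through its depleted libraries. GUT2 had 80.7, 65.5 and 57.4 CPM in depleted libraries and 30.1, 34.6 and 26.9 CPM in control libraries (1.15 ± 0.22, edgeR adjusted p = 0.000665). CYB2 had 16.9, 15.7 and 22.8 CPM in depleted libraries and 7.18, 6.21 and 9.40 CPM in control libraries (1.23 ± 0.37, edgeR adjusted p = 0.0160), a call not kept by DESeq2 (adjusted p = 0.0797) or without depleted library 3 (edgeR adjusted p = 0.0837), control library 1 (0.0507) or control library 2 (0.0909). DLD1, a D-lactate dehydrogenase gene, was lower (-0.39 ± 0.12, edgeR adjusted p = 0.0182), a call lost without depleted library 3 (0.0530), control library 2 (0.0795) or control library 3 (0.0584), and by DESeq2 (adjusted p = 0.0564). The 4 tested genes for ATP and phosphate exchange all lay below 0, with a median of -0.34, near that of the members. Of these, 1 was called lower, where 14.1% of all genes were. It was PET9, the main ADP and ATP carrier gene (-0.38 ± 0.11, edgeR adjusted p = 0.0136). ATP19, the gene of a small ATP synthase subunit outside the members, was also lower (-0.59 ± 0.18, edgeR adjusted p = 0.0175). Its call was lost without depleted library 3 (0.0773) or control library 2 (0.0995). DLD1, PET9 and ATP19 were not called with library totals only.

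The TCA cycle and the mitochondrial ribosome are the nearest other nuclear gene groups of the organelle. Of 13 tested TCA cycle genes 3 were lower (23.1%), ACO1 (-0.46), MDH1 (-0.42) and LPD1 (-0.34), and 1 higher, IDH1 (0.52), with a median of -0.20. Of all genes 14.1% were called in each direction. At an unadjusted p under 0.05, 5 were lower and 1 higher, against 19.1% and 19.4% of all genes. DESeq2 called 1 lower and 1 higher. LPD1 (edgeR adjusted p = 0.0497) overlapped between the groups. Its call was also lost without depleted library 3 (0.0980) or control library 1 (0.0589). Leaving out depleted library 2 or any control library other than the first removed the calls of both MDH1 and LPD1 (edgeR adjusted p = 0.0918 and 0.249 without depleted library 2), and so did leaving out depleted library 2 and control library 1 together (0.135 and 0.179). Under library totals alone 3 TCA cycle genes were higher and none lower, and IDH1 lost its call with depleted library 2 and control library 1 both left out (edgeR adjusted p = 0.0577). Of 67 tested mitochondrial ribosomal protein genes, taken by symbol pattern, none was lower and 1 higher by edgeR, 2 by limma-voom and none by DESeq2, with 6 higher and 2 lower at an unadjusted p under 0.05 and a median of 0.13. The gene called, MRPL32, lay at 0.45 with an edgeR adjusted p of 0.0490, a call not kept without any library other than depleted library 1, nor without both depleted library 2 and control library 1 (0.174). Library totals alone gave 28 higher, where 33.9% of all genes were higher. These counts stand beside 16 of 38 members lower, and the differences between the lists were not tested. Read depth also differed between lists. A tested gene's mean count per library had a median of 128 among the members and 203.5 among TCA cycle genes. That median was 82.5 for mitochondrial ribosomal protein, 45.8 for assembly and 38.3 for coenzyme Q genes. In these less deeply read lists a change of equal size was less likely to be called.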

How the data were processed

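Per the labels' protocols, RNA for 6 libraries (3 Rio1-depleted, 3 control) was prepared with hot phenol, cleared of rRNA (Ribo-Zero Gold for yeast) and sequenced from ScriptSeq v2 libraries. The deposited values are raw counts per gene for each library. The submitters' processing notes name TopHat2 2.0.8, HTSeq, DESeq and sacCer3. Settings, annotation and strand option were not given in the sources used here. Reads with several alignments (45.2% to 65.9% of entries) or on overlapping genes are outside the gene counts, and antisense reads cannot be separated. No member overlaps another R64 gene, but 684 identifiers had no R64 entry to check.

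Groups follow the labels' depletion or control field. Separate cultures are not named, so p-values cover the spread of these libraries, which can be partly technical. The 5 summary rows were removed. The main test was edgeR 4.0.16 (R 4.3.3) with TMM, filterByExpr (minimum count 10, minimum total 15), glmQLFit and glmQLFTest, Benjamini-Hochberg adjusted over 5195 genes at 0.05. An SE is the log2 fold change's size over the square root of F. The fit was checked on simulated counts. Alternatives were RLE factors, library totals, other filters, DESeq2 1.42.0, limma-voom (limma 3.58.1), glmTreat, a replicate block and fewer libraries. Same-numbered libraries did not deviate together.

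The 40 members, the gene lists and the naming rule were chosen with earlier results of these data known. The rule gives every library's value for called members, small groups and each complex's 2 most abundant members, and names up to 4 called genes per other list, or else its 2 most abundant. COX5B and CBP6, and the SE, spread or library values of other uncalled members, were added after their values were seen.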

Additional observations from a re-analysis of the deposited data

How the results depend on the processing

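The direction of the members' median (-0.36) was the same in all alternatives. It was -0.045 with library totals only, -0.38 with no count filter, -0.39 by DESeq2, -0.40 by limma-voom, -0.38 in the replicate block, -0.43 with depleted library 2 and control library 1 both left out (an alternative chosen after seeing the data), and -0.45 to -0.33 when 1 library was left out. The complex III median changed sign with library totals only (-0.26 in the main test, 0.055 there), and that of complex IV was -0.0079 there. Counts of genes lower moved as follows. With library totals only, 6 members were lower and 2 higher (16 and 0 in the main test), with 0 of complex II, 0 of complex III and 2 of the ATP synthase lower, and 85.2% of all calls were higher, against 50%. Tested against 1.5-fold, 394 genes were called in all, against 1469, and 1 member was lower, the 1 of complex IV, with 0 in each other group. DESeq2 called 0 complex II genes lower and 1 member higher (NDE2), and no count filter also gave 1 higher. A mean of at least 50 counts left 1 complex II gene lower. With depleted library 2 and control library 1 both left out, 0 complex II, 5 complex IV, 5 ATP synthase (7 in the main test) and 2 NADH dehydrogenase genes were lower. There 1 member was higher, NDE2, which passed the count filter only through its depleted libraries, as it did where it was called with 1 library left out. When 1 library was left out, 13 to 17 members were lower and 0 to 1 higher, with 0 to 2 genes of complex II, 2 to 4 of complex III, 3 to 4 of complex IV and 6 to 7 of the ATP synthase lower, where 11.2% to 13.2% of all tested genes were lower.

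The replicate block called 756 genes lower and 741 higher and changed the call of 1 member, ATP5, of MRPL32 (adjusted p = 0.0515, no longer called) and of CBP6 (0.0375, now called). No called member changed sign in any alternative, whereas 13 uncalled members changed sign with library totals only. COX6, COX4, CYC1, NDE1, ATP1 and ATP17 were lower in every alternative other than the 1.5-fold test, where COX6 was. Depth limits the less abundant genes: the 22 members not called had a median of 90.5 counts per library and SEs of up to 0.33, so a fall as small as the median of the members was not detectable in the least abundant of them.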
